A study of Mus musculus with 36 samples.

Results

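Germline and meiosis genes act in the formation of sperm and eggs and, as a class, are mostly repressed in somatic cells. Their expression in these livers was not analysed here. The group described here holds 36 such genes, listed by name, of 20962 protein-coding genes with an annotated RefSeq Select start. Its bins are those that the deposited tables assign to these 36 symbols. They make up 144 of 120683 bins in the age table of control females and 174 of 148133 bins in that of control males. All 36 genes lie on autosomes. They were taken as 5 functional sets: the piRNA pathway, the synaptonemal complex and chromosome axis, meiotic cohesin, recombination and telomere attachment, and germ cell regulators with other germ cell genes.

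The mark profiled was H3K9me3, trimethylation of lysine 9 of histone H3, by ChIP-seq of whole liver from mouse offspring. The offspring came from a floxed Reg3g colony on a C57BL/6J background, from dams mated with wild-type males, and carried Reg3g-fl/+ or Reg3g-fl/fl. They had no treatment of their own, and which animal had which genotype was not analysed here. Their dams ate chow as the control diet or a Western-style diet, which is the MO (maternal obesity) arm, and livers were taken at 3 weeks, before weaning, or at 8 weeks, after weaning onto chow. Diet of the dam, sex and age gave 8 ChIP groups with 4 libraries each, 32 in all, and there were 4 input libraries. The comparisons are 8 against 3 weeks in control females (groups CF_8w and CF_3w) and in control males (CM_8w and CM_3w), and the MO offspring against the controls of the same sex and age. For bins of up to 501 bp, the tables give a log2 change, an average log2 CPM (reads relative to library size), the FDR (false discovery rate) and its unadjusted p-value. Values per library were not analysed here, so the spread within a group of 4 enters only through the p-value. An approximate standard error (SE) was taken from each change and its p-value. Because the tissue was bulk liver, a change in the mark per cell and a change in the share of cells that carry it cannot be told apart.

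H3K9me3 is a mark of repressed chromatin. It is written at euchromatic genes mainly by SETDB1, and germline genes are a known class of its targets. Many of these genes have CpG-rich promoters that are methylated on DNA in somatic cells. A variant Polycomb complex, PRC1.6, also represses them. It reaches its sites through E2F6 with DP1, which bind an E2F-type sequence, and through MGA with MAX, which bind an E-box. The piRNA pathway uses small RNAs and PIWI proteins to silence transposons in the male germline. The synaptonemal complex is the protein zipper between paired meiotic chromosomes.

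Promoter sequences, from 250 bases before to 50 bases after an annotated start, were found for 29 of the 36 genes in RefSeq (GRCm38.p6, the assembly also called mm10). Those of Tex15, Piwil2, Spo11, Majin, Rnf17, Tdrd6 and Meiob were not used here. Each was searched for the E-box CACGTG, which reads the same on both strands, and for the E2F core TCCCGC on either strand (GCGGGA on the strand printed). The letters of the motifs do not overlap. Of the 9 genes with a promoter sequence whose start bin was higher at 8 weeks in males, Stag3, Tdrd5 and Tdrd9 are not printed. Promoters of 7 genes are shown as examples: Dazl, Ddx4, Sycp1, Syce1, Mael and Tdrd1 are the rest of the 9, and Tex12 is the gene with a negative change in each sex. They are printed 5′ to 3′ along the gene, with both motifs in capitals.
Dazl, minus strand, chr17:50293571-50293870: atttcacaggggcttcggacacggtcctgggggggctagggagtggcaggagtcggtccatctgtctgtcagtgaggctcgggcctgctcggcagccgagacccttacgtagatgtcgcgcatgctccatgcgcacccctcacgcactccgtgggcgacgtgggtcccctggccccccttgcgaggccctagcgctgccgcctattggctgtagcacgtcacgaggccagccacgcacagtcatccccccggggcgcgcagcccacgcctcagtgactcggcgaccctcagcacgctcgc
Ddx4, minus strand, chr13:112652261-112652560: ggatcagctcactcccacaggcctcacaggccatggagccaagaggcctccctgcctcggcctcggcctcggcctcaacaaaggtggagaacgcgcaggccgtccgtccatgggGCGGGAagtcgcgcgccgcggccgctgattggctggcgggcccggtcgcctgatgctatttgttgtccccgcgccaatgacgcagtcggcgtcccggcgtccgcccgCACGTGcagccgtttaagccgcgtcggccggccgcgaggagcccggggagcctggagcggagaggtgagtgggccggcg
Sycp1, minus strand, chr3:102936051-102936350: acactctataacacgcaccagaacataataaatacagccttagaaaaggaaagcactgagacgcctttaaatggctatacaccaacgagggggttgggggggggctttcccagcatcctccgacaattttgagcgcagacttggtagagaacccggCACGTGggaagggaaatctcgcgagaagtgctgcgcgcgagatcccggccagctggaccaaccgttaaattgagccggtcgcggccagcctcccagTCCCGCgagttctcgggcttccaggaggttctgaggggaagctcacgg
Syce1, minus strand, chr7:140787805-140788104: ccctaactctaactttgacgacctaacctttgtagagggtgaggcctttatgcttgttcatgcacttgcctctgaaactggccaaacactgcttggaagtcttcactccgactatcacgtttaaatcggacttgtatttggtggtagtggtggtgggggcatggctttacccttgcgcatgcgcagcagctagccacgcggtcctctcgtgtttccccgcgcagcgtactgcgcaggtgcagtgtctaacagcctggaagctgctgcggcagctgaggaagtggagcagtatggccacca
Mael, minus strand, chr1:166238695-166238994: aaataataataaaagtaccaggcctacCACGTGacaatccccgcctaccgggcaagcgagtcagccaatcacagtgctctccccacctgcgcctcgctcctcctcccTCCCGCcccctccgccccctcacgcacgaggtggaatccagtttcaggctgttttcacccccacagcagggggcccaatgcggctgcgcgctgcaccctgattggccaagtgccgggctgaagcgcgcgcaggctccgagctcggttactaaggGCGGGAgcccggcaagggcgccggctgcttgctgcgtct
Tdrd1, plus strand, chr19:56825959-56826258: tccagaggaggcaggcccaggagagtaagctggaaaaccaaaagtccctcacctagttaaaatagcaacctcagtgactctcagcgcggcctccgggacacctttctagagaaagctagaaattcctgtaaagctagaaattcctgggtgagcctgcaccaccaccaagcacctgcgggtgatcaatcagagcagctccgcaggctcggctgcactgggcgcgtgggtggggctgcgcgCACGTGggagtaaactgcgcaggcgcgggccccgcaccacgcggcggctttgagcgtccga
Tex12, minus strand, chr9:50561219-50561518: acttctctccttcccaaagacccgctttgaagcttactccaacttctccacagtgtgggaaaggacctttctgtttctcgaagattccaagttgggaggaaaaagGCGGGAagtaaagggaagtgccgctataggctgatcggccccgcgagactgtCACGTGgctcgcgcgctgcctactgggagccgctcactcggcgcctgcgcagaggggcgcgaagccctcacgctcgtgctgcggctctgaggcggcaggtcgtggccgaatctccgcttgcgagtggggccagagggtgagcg

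The E-box was present in 14 of the 29 promoters (48.3%), against 8.11% of the promoters of 16825 genes. The E2F core was present in 13 of 29 (44.8%), against 27.0% of all. Germline promoters were CpG-rich: their median was 20 CG dinucleotides in 300 bases, against 14 over all genes. Among the 6423 promoters with at least 20 CG, 11.9% held the E-box and 49.4% the E2F core, so the share with the E-box in the germline set stood above that of CpG-rich promoters and the share with the E2F core did not. Ddx4, Sycp1, Mael and Tex12 hold both motifs, Tdrd1 holds the E-box alone, and Dazl and Syce1 hold neither. Of those not printed, Stag3 holds both, Tdrd5 the E2F core alone and Tdrd9 the E-box alone. Among genes with a start bin that was higher in males, 6 of 9 promoters held the E-box and 5 the E2F core. Among those whose male start bin did not pass as higher, 8 and 6 of 17 did. No test was made of this split. A match of these letters is a description of the sequence and not a measured binding site.

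The first question was where the mark lies at these genes. Nearly every germline gene had an H3K9me3 peak at its start. The peak sets were made per sex from the libraries of both diets and ages, so a peak does not show the mark in any 1 group. Among the peaks listed in the female age table, 35 of the 36 starts lay inside one, all but that of Tex15, a meiotic recombination and piRNA factor. In that of males, 33 did, all but those of Rec8, Tdrd7 and Tex15. Peaks were common at gene starts in these tables: they covered 50.5% of 19986 autosomal starts in females and 55.6% in males. By the deposited annotation, which counts as promoter anything within 3 kb of a start, 35 germline genes had a promoter bin in the female age table and 35 in the male, against 64.4% and 68.9% of all autosomal genes. The gene without a promoter bin of its own was Tex14, a kinase-like protein of germ cell bridges. A bin does lie at its start, but the tables assign it to the neighbouring gene Rad51c. Likewise the bin at the start of Nanos3, an RNA-binding regulator of germ cell survival, is assigned to Mir181c in the female table. Bins assigned to another symbol were left out of the values below, which leaves 33 start bins in females and 32 in males. Promoter bins made up 34.7% of the germline bins in females, where 21.1% of all bins are in promoters, and 34.5% in males, where 20.3% are.

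**Figure D1:**
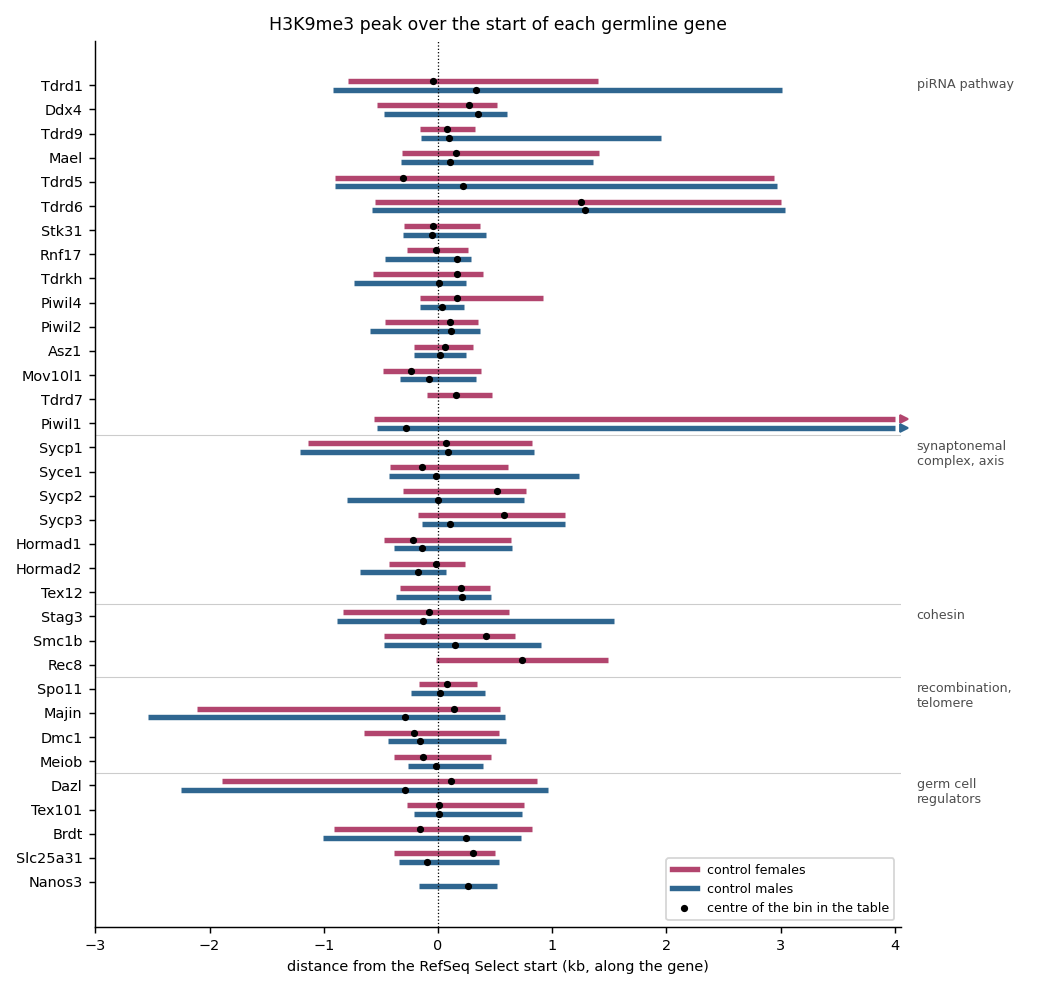
Extent of the H3K9me3 peak over the start of each germline gene, in kb from the RefSeq Select start along the direction of the gene, for the peak sets of females and males. Black dots mark the centre of the bin listed in the age table, arrowheads mark peaks that run past the right edge, and grey lines separate the functional sets. Most peaks are short and straddle the start, with Piwil1 as the long exception.

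The peaks over these starts were short. Their median length was 1072 bp in females and 1058.5 bp in males, against 1578 and 1518 bp at all gene starts with a peak. They reached a median of 427 bases upstream and 611 bases downstream of the start in females. The peak at Piwil1, a PIWI protein of pachytene spermatocytes, ran 6399 bases into the gene in females and 15458 bases in males. At this gene the bin listed in the female table lies inside the gene and that of the male table lies at the start. The peaks at Dazl were long upstream, reaching 1894 bases in females and 2247 bases in males.

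Signal over the starts was high. Levels are compared here only among start bins of the full 501 bp, so that length does not enter. In females the median of 29 germline start bins was 3.22 log2 CPM, against 2.72 over 7833 start bins. In males it was 3.11 for 27 germline bins, against 2.24 over 8524. Among the 79 strongest start bins of females, the top 1%, stood 9 germline genes: Dazl, Ddx4, Mael, Sycp1, Stag3, Spo11, Sycp2, Asz1 and Stk31. Thus 31.0% of the germline bins fell in the top 1%. In males 9 of 27 (33.3%) fell among the top 86: Dazl, Syce1, Ddx4, Mael, Sycp1, Stag3, Spo11, Slc25a31 and Stk31. These shares are a description, since the genes were listed with earlier results of these data known.

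Dazl had the highest signal of the group in each sex. It encodes an RNA-binding protein needed for germ cells to enter meiosis. Its start bin stood at 4.43 log2 CPM in females, rank 6 of 7833, and at 4.10 in males, rank 14 of 8524. Ddx4, the VASA RNA helicase of the germ granule, followed at 4.14 in females and stood at 3.90 in males. Mael, a piRNA pathway factor, stood at 4.04 and 3.80 log2 CPM. Sycp1, the transverse filament of the synaptonemal complex, stood at 3.86 and 3.73. Syce1, a central element protein of the same complex, ranked 108 in females at 3.40 log2 CPM and 20 in males at 3.99. The weakest start bins belonged to Tdrd6 in females (2.40) and Majin in males (1.87), a chromatoid body protein and a telomere attachment protein, respectively.

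The second question was how the mark changed between 3 and 8 weeks. Livers of 3 and 8 weeks came from separate cohorts, taken before weaning and after weaning onto chow. Age therefore cannot be told apart from cohort, from any batch that followed it, or from the animals' own diet. Changes with age are meant below in this sense. The mark rose at the starts of some germline genes, most of them with strong signal. In females 4 of 144 germline bins passed an FDR under 0.05, a share near that of all bins (2.72%). All 4 were higher at 8 weeks and all lay in promoters. In males 21 of 174 passed (4.41% of all bins), 17 higher and 4 lower. At the starts, 3 of 33 germline bins in females were higher, against 1.5% of 9383 start bins, and 9 of 32 in males, against 4.69% of 10337. No germline start bin was lower at that threshold in edgeR's exact test, and 0 were lower at an unadjusted p under 0.05, in females or in males.

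The median change of the germline start bins was 0.36 (log2) in females, against 0.28 for all starts and -0.03 for all bins. In males the germline median was 0.77, with 0.47 for all starts and -0.05 for all bins. The change was positive at 28 of 33 germline starts in females and at 30 of 32 in males, against 66.4% and 73.5% of all starts. Outside promoters the medians of the germline bins were nearer to 0. Gene body bins had a median of -0.03 in females, where that of all gene body bins was -0.10, and of -0.00056 in males, where it was -0.13. For distal bins the germline median was 0.01 in the female table and -0.08 in the male one, and the medians of all distal bins were 0.01 and -0.02. The passing germline bins of females were all higher, 4 of 50 promoter bins, where 1.89% of all promoter bins passed as higher and 1.01% as lower, and 1.05% of all gene body bins as higher. In males 6 of the 64 germline gene body bins, in 4 genes, passed as higher, where 2.09% of all gene body bins did, and 0 passed as lower, where 2.22% did. Of the 60 male promoter bins of these genes, 11 passed as higher and 2 as lower, against 2.65% and 1.6% of all promoter bins.

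**Figure D2:**
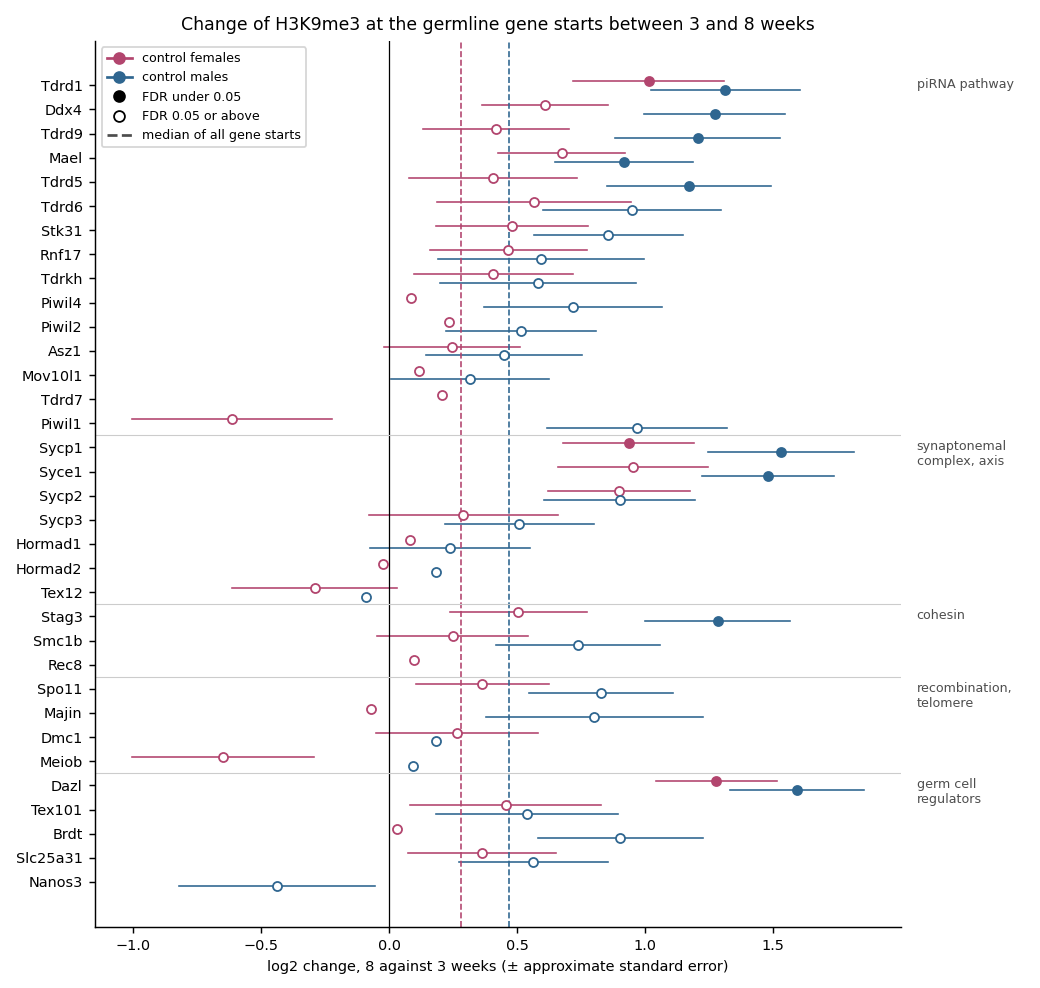
Log2 change of H3K9me3 from 3 to 8 weeks at the start bin of each germline gene in control females and control males, positive where the mark was higher at 8 weeks. Filled points have an FDR under 0.05, lines show the approximate SE (omitted where p was above 0.5), and dashed lines mark the medians over all gene starts, 0.28 in females and 0.47 in males. Points of males lie mostly to the right of those of females.

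Dazl had the largest change of the germline start bins in each sex. The female start bin (chr17:50293253-50293753) was higher at 8 weeks by 1.28 on the log2 scale (SE 0.24, FDR 6.47e-05). In males the bin at chr17:50293657-50294157 was higher by 1.59 (SE 0.26, FDR 1.72e-06). Both bins are annotated as promoter within 1 kb of the start and overlap the promoter sequence printed above.

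Among genes of the synaptonemal complex and chromosome axis, the start bins of Sycp1 passed in each sex and that of Syce1 in males, and the others did not pass. Sycp1 was higher in females (0.94, SE 0.26, FDR 0.0206) and also in males (1.53, SE 0.29, FDR 5.67e-05). A further 2 Sycp1 bins, in introns 22 and 20, were higher in males by 1.13 (SE 0.35, FDR 0.0425) and 1.10 (SE 0.29, FDR 0.0120). Repeat-masked bases of the assembly made up 99.2% and 82.2% of these intronic bins, against 4.59% and 3.39% of the Sycp1 start bins of females and males. Syce1 was higher in males (1.48, SE 0.26, FDR 1.01e-05), and in females its change of 0.95 had an FDR of 0.0519. Sycp2, a lateral element protein, missed the threshold in each sex. Its change was 0.90 in each, in bins that do not overlap, at an FDR of 0.0531 for females and 0.0609 for males. Sycp3, its lateral element partner, had changes of 0.29 and 0.51. The HORMA domain proteins of the chromosome axis, Hormad1 and Hormad2, had changes between -0.03 and 0.24 in the sexes. Tex12, a central element protein, had -0.29 in females and -0.09 in males, with FDRs of 0.796 and 0.992. Its promoter holds both motifs and lies under a peak, and whether the motifs bear on the change was not tested.

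The piRNA pathway is the largest set, with 15 start bins in females and 14 in males. Of these, 1 passed in females and 5 in males, all higher, where 1.5% and 4.69% of all start bins passed as higher. The change was positive at 14 of 15 and 14 of 14, against 66.4% and 73.5% of all start bins. Tdrd1, a Tudor protein that binds PIWI proteins, was higher in females (1.01, SE 0.29, FDR 0.0343) and likewise in males (1.31, SE 0.29, FDR 0.00136). Ddx4 was higher in males (1.27, SE 0.28, FDR 0.000995), with 0.61 in females (FDR 0.193). Mael was higher in males (0.92, SE 0.27, FDR 0.0283), with 0.67 in females (FDR 0.135). Tdrd5 and Tdrd9, a Tudor protein and a Tudor helicase of the pathway, were higher in males at the start by 1.17 (SE 0.32, FDR 0.0167) and 1.20 (SE 0.32, FDR 0.0132). In females they had 0.40 (FDR 0.664), in a bin that does not overlap the male one, and 0.42 (FDR 0.564), respectively. The other start bins of the set had changes from 0.32 to 0.97 in males and, leaving out the internal bin of Piwil1 (-0.61), from 0.09 to 0.57 in females, and none passed. Among them Stk31, a Tudor domain kinase-like protein, had 0.48 and 0.86 in females and males, Rnf17, a Tudor protein of spermatids, 0.47 and 0.59, and the PIWI proteins Piwil2 and Piwil4 0.23 and 0.51, and 0.09 and 0.72. Tdrkh, which tethers PIWI proteins to mitochondria, had 0.41 and 0.58, and Tdrd7, listed at its start only in females, 0.21.

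Tdrd9 held the most passing bins of any germline gene. In males 6 of its 18 bins passed. Of these, 5 were higher, from 1.14 in a bin annotated as 3′ UTR to 1.64 in a bin annotated as promoter at chr12:112012595-112013095 (SE 0.34, FDR 0.000388). The other, at chr12:111994532-111995032, also annotated as promoter, was lower by 1.36 (change -1.36, SE 0.41, FDR 0.0370). In females the passing Tdrd9 bin was not at the start but at chr12:112060855-112061355, annotated as promoter 1 to 2 kb from a start (0.87, SE 0.27, FDR 0.0495). The male bin that overlaps it was higher by 1.27 (SE 0.29, FDR 0.00177). These bins were 80.4% and 88.4% repeat-masked.

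Meiotic cohesin holds sister chromatids together in the germline. Stag3, its STAG subunit, was higher in males (1.28, SE 0.28, FDR 0.00116), with 0.50 in females (FDR 0.392). Smc1b had changes of 0.25 and 0.74 and Rec8, listed at its start only in females, 0.10. Neither passed. No start bin of the recombination and telomere attachment genes passed in edgeR's exact test. An unadjusted p under 0.05 was met by 0 of 4 in females and 1 of 4 in males, against 20.6% and 34.7% of all start bins. Spo11, which cuts DNA to start recombination, had a strong signal but changes that did not pass, 0.36 in females (FDR 0.589) and 0.83 in males, where the FDR was 0.0769. The strand exchange protein Dmc1 had 0.27 and 0.18, and Meiob, a single-strand DNA-binding protein of meiosis, -0.65 and 0.09. Majin had -0.07 in females and 0.80 in males. Tex15 had no bin over its RefSeq Select start, and its nearest promoter bin had 0.74 in females (FDR 0.297), with 0.42 in males (FDR 0.661). Among the remaining germ cell genes, Brdt, a testis bromodomain protein, had 0.03 in females and 0.90 in males (FDR 0.102), and Slc25a31, the testis ADP/ATP carrier, 0.36 and 0.56. Tex101, a germ cell surface glycoprotein, had 0.45 and 0.54. Nanos3, listed at its start only in males, had -0.44 (FDR 0.667), the lowest change of the male germline starts.

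Intronic bins of 2 further genes rose in males, in Asz1 (intron 10, 1.44, SE 0.27, FDR 6.85e-05) and in Mov10l1 (intron 22, 0.96, SE 0.27, FDR 0.0216), both piRNA pathway genes whose start bins did not pass (0.45 and 0.32). Both intronic bins were mostly repeat sequence, with 79.6% and 95.01% of their bases masked, and how uniquely reads map there was not tested. The 3 other bins that fell in males lay away from the annotated RefSeq Select starts and had weak signal, from 1.90 to 2.08 log2 CPM. They were a distal bin of Tdrd5 (-1.59, SE 0.45, FDR 0.0242), a distal bin of Stk31 (-1.40, SE 0.44, FDR 0.0498) and a bin of Tdrd7 at chr4:45964947-45965433, annotated as promoter (-1.84, SE 0.44, FDR 0.00337).

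The sexes were set side by side at the 31 germline starts with a bin in each table. The peak sets were made separately for each sex, and 21 of the 31 pairs of bins overlapped by a share of at least 0.5 of the shorter bin. The change was positive in each sex at 26 genes and negative in each sex at 1, Tex12. It was larger in males at 30 of 31, against 59.8% of 8245 starts compared, with a median difference of 0.32 for the germline genes and 0.16 for all starts. Other strong starts also had a larger change in males: outside the germline genes, the top 1% by signal had medians of 0.88 in females and 1.40 in males. At 10 of the 31 the p-value in a sex was above 0.5, where the approximate SE is too unstable for a test of the difference, as at Brdt, and these 10 could hardly pass. The difference itself, taken from the 2 changes and their approximate SEs, passed an adjusted p of 0.05 at none of the 31 (Benjamini-Hochberg over all 8245 starts, 283 of which passed and 2722 of which had such a p-value) and was under an unadjusted p of 0.05 at 2, Piwil1 and Stag3, where 17.9% of all starts compared were. Piwil1 had the lowest adjusted p of 0.0610, with bins at different places in the sexes. For Dazl, Sycp1 and Tdrd1, which passed in each sex, the difference between the sexes did not pass.

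**Figure D3:**
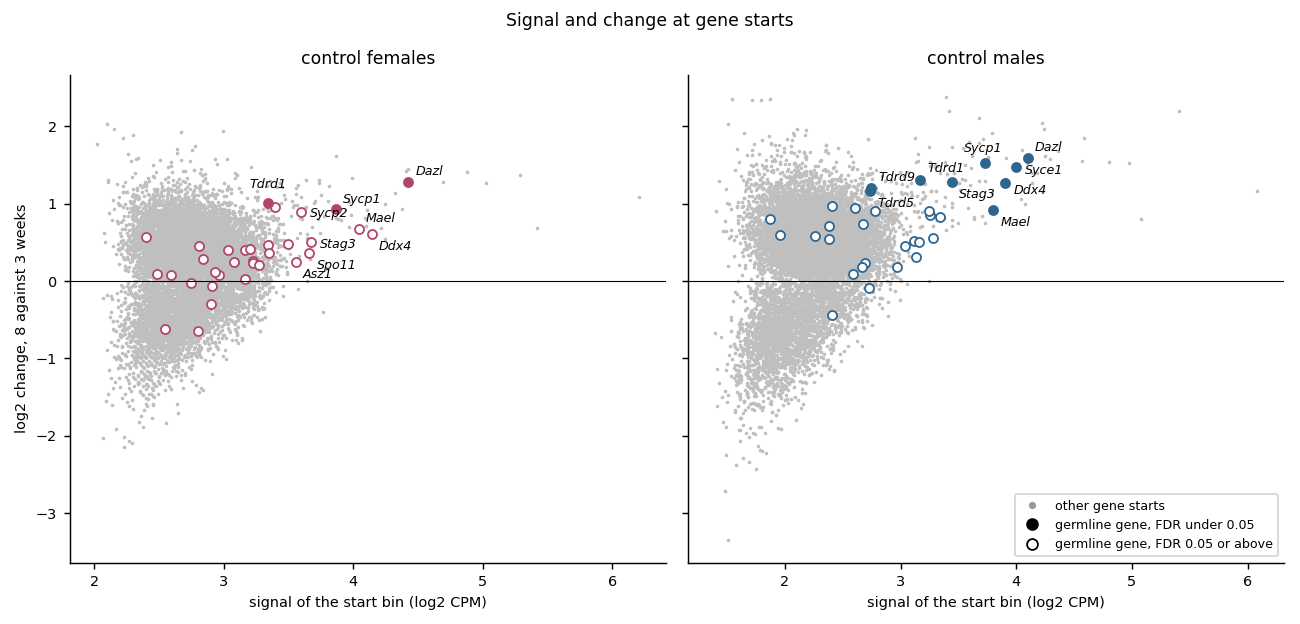
Signal of the start bin (log2 CPM, x axis) against its log2 change from 3 to 8 weeks (y axis) for all autosomal gene starts with a peak (grey, 9383 bins in females and 10337 in males, germline genes included in those totals) and for the germline genes (coloured, filled where the FDR was under 0.05). Germline genes with strong signal and a gain lie among other gene starts of the same strength.

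Gains were more frequent among strong start bins, and other strong gene starts gained as well. The signal here is the average over the 3-week and 8-week libraries of the same comparison, so a gain itself raises the signal and the rank of a bin, and the 2 values are not independent. Of the 70 other start bins in the top 1% of females, 36 (51.4%) were higher at 8 weeks with an FDR under 0.05, against 2 of the 9 germline bins. In males 66 of 77 others (85.7%) passed, against 6 of 9. The median change of these other strong starts was 0.88 in females and 1.40 in males, and that of the germline bins among them 0.61 and 1.27. Below the top 1%, 1.12% of 7754 starts passed as higher in females and 4.11% of 8438 in males. In the top 5%, the order was reversed. There 3 of 15 germline bins passed as higher in females, against 12.5% of 377 others, and 7 of 16 in males, against 28.2% of 411. In each sex 9 of these germline bins were in the top 1%, as were 70 of the 377 and 77 of the 411 others. The median changes of germline bins and others were 0.50 and 0.42 in females, and 0.90 and 0.74 in males. Whether germline genes gained more than other starts at a given signal was not tested.

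The change also moved with base composition and signal over all bins. The bins at germline starts had a median GC content of 61.5% in the female table and 61.9% in the male one. Over all bins the medians were 54.3% and 53.9%, and at all starts 63.7% and 63.1%. When the median change of bins of like GC content and like log2 CPM was subtracted, 0 of the 4 germline bins of females and 2 of the 21 of males still passed, the gain at Tdrd9 chr12:112012595-112013095 and the loss at Tdrd7. Over all bins of females, 911 passed after the subtraction and 3285 before it, and in males 2105 after and 6527 before. At the germline starts the median change after subtraction was -0.0099 in females, against 0.05 at all starts, and 0.16 in males, against 0.15, and 15 of 33 and 21 of 32 were positive. The shift of the germline starts above all starts was thus not seen once bins of like composition and signal were compared. At the Dazl start bin the change fell from 1.28 to 0.53 in females (adjusted p 0.292) and from 1.59 to 0.76 in males (adjusted p 0.101). The part of composition, of signal and of age in the gain was not tested, and the subtraction takes out any change that strong CpG-rich starts share.

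Each peak has 1 bin in a table, and how it was chosen is not stated. In males, 17.4% of the bins from single-bin peaks had a p under 0.05, and this share was 20.1% for peaks 3 bins long and 41.7% for peaks of 8 bins or more. Long peaks therefore gave low p-values more often. The listed bin can differ between comparisons of the same peaks: the age table and the MO table at 3 weeks list the same bin at 23 of 32 germline starts in females and 19 of 31 in males. Were the bin chosen by its p-value, the changes, p-values and FDRs of longer peaks would be too favourable, and this was not tested. Of the 32 male germline start bins, 2 came from single-bin peaks, 12 from peaks of 2 bins and 4 from peaks of 8 or more.

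The third question was whether maternal obesity altered the mark at these genes. No germline bin passed an FDR under 0.05 in any of the 4 MO comparisons. The looser threshold of p under 0.001, unadjusted, was met by 1 of 167 germline bins in females at 3 weeks (0.211% of all bins met it), 0 of 201 in males at 3 weeks (0.278%), 0 of 140 in females at 8 weeks (0.162%) and 0 of 136 in males at 8 weeks (0.114%). An unadjusted p under 0.05 from edgeR's exact test was met by 13, 14, 8 and 4 bins. These are 7.78%, 6.97%, 5.71% and 2.94% of the germline bins, against 7.72%, 8.83%, 7.00% and 6.50% of all bins.

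The bin that passed was at the start of Brdt (chr5:107330787-107331287), lower with MO in females at 3 weeks (-1.21, SE 0.35, exact test p = 0.000629, FDR 0.682). The same bin had 0.22 in females at 8 weeks (exact test p = 0.496). The male tables list other bins of the Brdt peak, which do not have the same place. At 3 weeks it was chr5:107330186-107330686, which does not overlap the female bin and had weak signal (1.48 log2 CPM), with -0.76 (exact test p = 0.103). At 8 weeks it was chr5:107331186-107331686, with -0.11 (exact test p = 0.738). The next lowest p at a start was that of Mov10l1 in males at 3 weeks (-1.0, SE 0.32, exact test p = 0.00176), while the same bin had 0.25 in males at 8 weeks (exact test p = 0.365). The female tables list another, shorter bin of Mov10l1, with 0.78 at 3 weeks and 0.67 at 8 weeks. At the 9 genes whose start bin was higher with age in males, the changes with MO ran from -0.61 to 0.52 over 35 values in the 4 comparisons, and 0 of the 35 had an unadjusted p under 0.05 (the lowest p in edgeR's exact test was 0.0552). Over all start bins 12.7%, 13.8%, 13.9% and 10.5% had such a p in the comparisons of females and males at 3 weeks and then at 8 weeks. Of these values, 19 come from the bin that the age table of the same sex lists. The genes that passed with age in each sex were Dazl, with MO changes of 0.35, 0.50, 0.35 and -0.51, Sycp1, with 0.23, 0.49, 0.14 and 0.21, and Tdrd1, with -0.36, 0.29, -0.32 and -0.60, in females and males at 3 weeks and females and males at 8 weeks, respectively. At 8 weeks the bins listed for Dazl are not those that rose with age. The median over the germline starts was -0.0042, -0.11, -0.05 and -0.06 in the same order, against -0.16, -0.14, -0.25 and -0.09 over all starts. The control libraries of the MO comparisons are those of the age comparisons, so the 2 kinds of change are not independent.

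**Figure D4:**
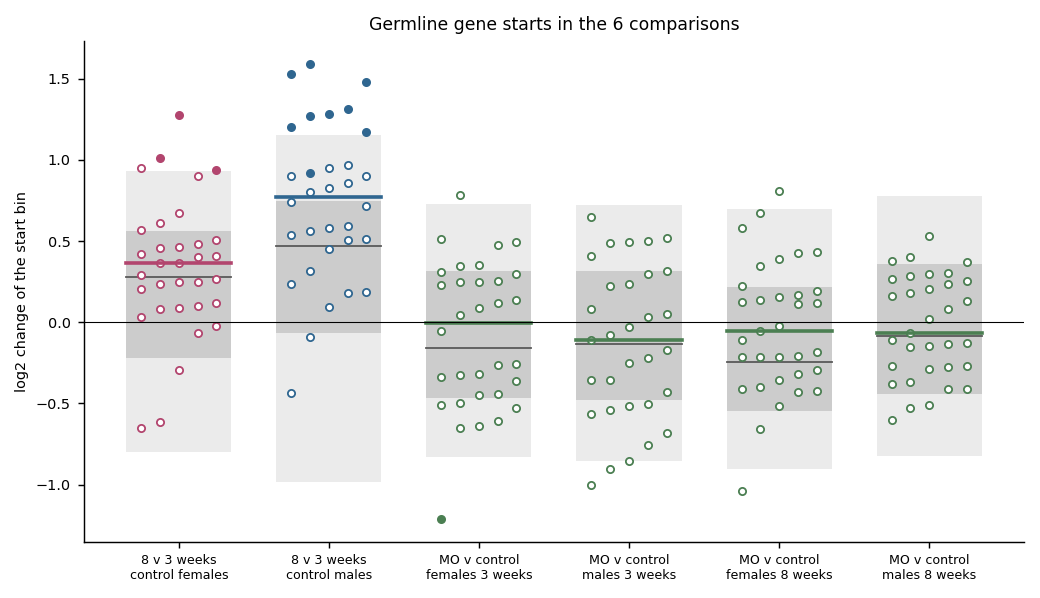
Log2 change of the start bins of the germline genes (points, filled where they passed: FDR under 0.05 for age, p under 0.001 for MO) in the 6 comparisons, with their median as a coloured line. Grey boxes show the interquartile range and the range of the central 90% of all gene starts, with the median in dark grey. The points sit high in the age comparisons and spread around 0 in the MO comparisons.

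Other germline genes gave a background for these results. A list of 43 further germline and meiosis genes had 40 on autosomes, of which 35 had the start in a peak in females and 34 in males. At their start bins 0 of 34 passed in females and 3 of 33 in males, where 1.5% and 4.69% of all start bins passed as higher. In edgeR's exact test 7 and 11 of them had an unadjusted p under 0.05, against 20.6% and 34.7% of all start bins. The 3 that passed in males were all higher: Boll, a DAZ family protein (1.52, SE 0.26, FDR 1.05e-05), Henmt1, the piRNA methyltransferase (1.23, SE 0.30, FDR 0.00475), and Meioc, a meiotic entry factor (1.15, SE 0.30, FDR 0.0113). The median change of the list was 0.20 in females and 0.30 in males, below the medians of all starts, and 2 of its 29 full-length start bins in females (Boll and Ddx25) and 1 of 27 in males (Boll) stood in the top 1% by signal. Among 22 genes of repressors of germline genes, start bins were counted for 15 in females and 17 in males. E2f6, Mga and Dnmt1 were among those counted in each sex, and Setdb1 in neither. No start bin passed in either sex, where 1.5% and 4.69% of all start bins passed as higher. The median changes of these repressor start bins were 0.25 and 0.50. In the same exact test 4 and 8 of them had an unadjusted p under 0.05, where 20.6% of all start bins in females and 34.7% in males did. As a check of the tissue, the starts of 15 hepatocyte genes, including Alb and Ttr, were mostly outside peaks: with age, 2 of 15 were covered in the tables of females and of males, those of Apob and Apoc3, and in the MO comparisons 3 of 15 in males, Hnf4a among them, and 2 and 1 in females at 3 and 8 weeks.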

How the data were processed

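H3K9me3 ChIP-seq libraries of liver were compared through the deposited tables of 6 contrasts. The study's methods state that reads were aligned to mm10/GRCm38 by the Burrows-Wheeler Aligner and that the authors used MACS2 in broad mode, retained peaks seen in most replicates, merged them per sex, cut peaks over 500 bp into bins, counted reads with featureCounts and applied edgeR's exact test, with ChIPseeker annotation. The deposited change and signal are log2 values, and the deposited p-value and FDR are unadjusted and Benjamini-Hochberg adjusted probabilities. The age tables were turned so that positive is higher at 8 weeks. The counts behind the tables, and so the depth of each library, were not analysed here; the tests planned on counts gave way to the deposited p-values. The FDRs were set over more bins than are listed (at least 154643 against 120683 in the female age table).

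The members and gene lists were chosen with earlier results of these data known. A start bin was the bin of the peak that covers the RefSeq Select start (GRCm38.p6), counted once per bin. GC content came from the same assembly. The approximate SE is the change divided by the normal deviate of its p-value. The trend was the median change within 5 classes of GC content by 50 classes of log2 CPM, and it was subtracted before the p-values were recomputed and adjusted. The functions were tested on simulated data. Named genes were all members with a promoter bin as far as the results turn on them, bins with an FDR under 0.05 (age) or p under 0.001 (MO), and the 3 strongest bins of each age table. Other thresholds, narrower promoters, adjustment over the listed bins, trend removal and single-bin peaks were tried, the last 2 added after seeing the data. Python 3.11.15, numpy 2.4.6, pandas 2.3.3 and scipy 1.17.1 were used. Input libraries were not used.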

Additional observations from a re-analysis of the deposited data

How the results depend on the processing

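Counts of germline bins that passed depended on the threshold and on trend removal. In females 4 of 144 bins passed with age, 1 at an FDR under 0.01 and 9 at an FDR under 0.10. With the trend removed 0 passed, against 0.755% of all bins. Single-bin peaks held 35 of the germline bins, and 0 of these passed, against 2.29% of all bins of such peaks. In males 21 of 174 passed, 11 at an FDR under 0.01. With the trend removed 2 passed, against 1.42% of all bins. Single-bin peaks held 50 of the male germline bins, and 2 of these passed, against 3.29% of all bins of such peaks. Adjustment over the listed bins alone and leaving out distal bins kept both counts within 1.5 times. With MO, 4, 3, 1 and 1 bins passed a p under 0.01 (females and males at 3 weeks, then at 8 weeks), 13, 14, 8 and 4 passed a p under 0.05, and the 1 bin in females at 3 weeks was lost at an FDR under 0.05, which left 0. These counts are of 167, 201, 140 and 136 germline bins. Over all bins 7.72%, 8.83%, 7.00% and 6.50% had a p under 0.05, and the share under 0.01 was not computed. Among the strongest 2% of start bins in males stood 15 germline genes in place of 9.

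Requiring a bin over the start left 20 members in place of 35 in the MO table of females at 3 weeks and 17 in place of 34 in that of males. Medians moved by over 0.1 (log2) as follows. With bins within 1 kb of the start, the median log2 CPM was 3.03 in females and 2.65 in males (age), 2.28 in males at 3 weeks and 3.38 in males at 8 weeks (MO). With 1 bin per member nearest to the start it was 3.16 and 2.74 (age, females and males) and 2.60, 2.37, 3.19 and 3.46 (MO, females and males at 3 weeks, then at 8 weeks). The main values were 2.91 and 2.50 (age) and 2.50, 2.14, 3.00 and 3.25 (MO). The median change with age was 0.25 in females and 0.46 in males over all promoter bins, and 0.36 and 0.72 with 1 bin per member. With MO in males at 3 weeks it turned from 0.0315 to -0.0524 within 1 kb and -0.0937 with 1 bin per member, where the cause was not tested. The other 31 values kept their direction and range.

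No paired analysis was possible because the tables hold no columns per library. For the same reason no replicate was left out. The precision at weak bins is limited by depth that is not known here.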

Other observations

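Some germ cell genes that are not in the list stood among the strongest 1% of start bins, and those named here were chosen after their values were seen. Tcfl5, a basic helix-loop-helix factor of spermatocytes, stood at 4.88 log2 CPM in females (rank 3 of 7833) and 4.98 in males (rank 2 of 8524), with changes from 3 to 8 weeks of 1.42 (FDR 2.11e-07) and 1.53 (FDR 7.61e-07). Rbmxl2, a testis RNA-binding protein, stood at 4.25 and 4.57 log2 CPM, with changes of 1.00 (FDR 0.00402) and 1.55 (FDR 1.07e-06). D1Pas1, a testis DEAD-box helicase, stood at 3.97 and 4.13, with changes of 1.02 (FDR 0.00876) and 1.39 (FDR 4.9e-05). Others of this strength did not pass in each sex. Papolb, a testis poly(A) polymerase, had 0.33 in females (FDR 0.693), and in males it was higher by 1.14 (FDR 0.00537). Pabpc2, a testis poly(A)-binding protein, had 0.62 in females and 0.81 in males, with FDRs of 0.291 and 0.0697. Boll, which passed in males, had 0.71 in females (FDR 0.0975).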
